A study of Bos taurus with 6 samples.

Results

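The carnitine shuttle carries fatty acids into mitochondria for oxidation. Carnitine palmitoyltransferase 1 (CPT1), in the outer membrane, exchanges the CoA of a long-chain acyl-CoA for carnitine, the carrier SLC25A20 moves the acylcarnitine across the inner membrane, and CPT2 returns the acyl group to CoA inside. Malonyl-CoA, the building unit of fatty acid synthesis, inhibits CPT1, so that cells making fat burn less of it. In the mammary gland, which builds milk fat, this step stands between synthesis and oxidation.

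The 10 genes described here were taken by symbol, and all 10 were found among the 15693 genes of the count table. They are the 3 CPT1 forms *CPT1A*, *CPT1B* and *CPT1C*, the inner-membrane enzyme *CPT2*, the acyltransferases *CRAT* and *CROT*, the carriers *SLC25A20* and *SLC22A5*, and the malonyl-CoA enzymes *ACACB* and *MLYCD*. All 10 passed the filter on low counts and were tested among 13720 genes.

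The sequenced RNA came from bMECs, cultured epithelial cells from the mammary tissue of a lactating Chinese Holstein cow, in 2 groups of 3 libraries. The ACADSB-/- group carried a Cas9 edit of *ACADSB*, the mitochondrial short/branched-chain acyl-CoA dehydrogenase, delivered by a plasmid that marks its host cells with green fluorescent protein. The other group, called WT here and control in the labels, was the same kind of cell without the knock-out, and the labels give both groups the same medium with fetal bovine serum, hydrocortisone and insulin. Whether the WT cells had been transfected with any plasmid is not stated. The sources differ on the edited cells: the methods describe growth from a single sorted cell, while the design text given with the series speaks of 3 and could mean separate lines. With 1 clone, effects of the edit and of that cell's history cannot be told apart, and no source states separate cultures for the 3 libraries of a group. The p-values below therefore reflect the spread of these libraries alone, which may be technical.

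The libraries held 30550275 to 34983965 counts. Correlations of log2 CPM (counts scaled to the same library total) were 0.9905 to 0.9928 within a group and 0.95 to 0.956 between groups, and no library stood apart from its group. The targeted gene *ACADSB* was counted 9, 7 and 15 times over the ACADSB-/- libraries, against 38, 34 and 20 over the WT libraries, and its log2 fold change of ACADSB-/- over WT was −1.60 (standard error, SE, 0.459, with an adjusted p = 0.00357 by the quasi-likelihood test of edgeR, adjusted after Benjamini and Hochberg). *KRT8*, *KRT18* and *KRT5*, keratins of mammary epithelium, had mean levels of 1390, 1620 and 2140 length- and depth-scaled reads (FPKM) in ACADSB-/- and 1540, 2330 and 1870 in WT. Of the other luminal markers, *EPCAM* and *CDH1* had 117 and 92.1 FPKM in ACADSB-/- and 75.3 and 67 in WT. *KRT19* was low, at 3.73 in ACADSB-/- and 3.39 in WT. *ELF5*, *ESR1* and *PGR* were listed at 0 FPKM in all 6 libraries, and group means of *GATA3* and *PRLR* were at most 0.031. The casein genes *CSN1S1*, *CSN1S2*, *CSN2* and *CSN3*, which mark milk secretion, were listed at 0 FPKM in all 6 libraries.

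Of the 10 genes, 4 rose in ACADSB-/- bMECs, 1 fell and 5 missed the threshold of 0.05 on edgeR's adjusted p, which makes 5 called genes where 58.2% of all tested genes were called (29.7% higher and 28.6% lower). *CPT1A*, *CRAT*, *MLYCD* and *SLC25A20* rose and *CPT1C* fell. At a change of at least 2-fold, *CPT1A* and *CPT1C* were called, against 10.2% of the tested genes (5.3% up and 4.92% down). With 10 genes, neither share is read as a difference from the other genes. Their median log2 fold change was 0.12 beside 0.0049 over all tested genes, and the median of its absolute size was 0.308 beside 0.314. For 5 of the 10 the CPM of every library in one group exceeded those of the other, beside 63.6% of all tested genes.

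**Figure D1:**
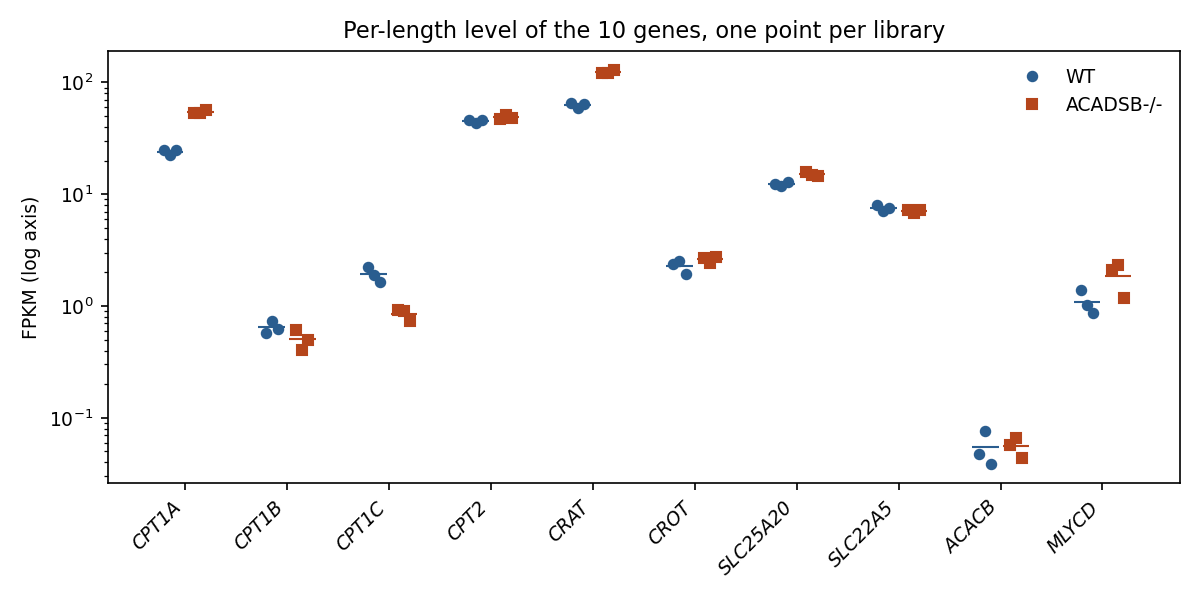
FPKM of the 10 genes on a log axis, with a point for each library (blue circles WT, orange squares ACADSB-/-) and a line at each group mean. *CRAT*, *CPT2* and *CPT1A* lie highest, *ACACB* lowest, and the groups are far apart only for *CPT1A*, *CPT1C* and *CRAT*.

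Per length, *CRAT* was the highest of the 10 in both groups. In WT the order of mean FPKM was *CRAT* (62.8), *CPT2* (45.2), *CPT1A* (24.0), *SLC25A20* (12.4), *SLC22A5* (7.51), *CROT* (2.28), *CPT1C* (1.92), *MLYCD* (1.10), *CPT1B* (0.645) and *ACACB* (0.0544). Only *CROT* and *CPT1C* were neighbours whose WT libraries overlapped. In ACADSB-/- the means were 123 for *CRAT*, 54.3 for *CPT1A*, 48.8 for *CPT2*, 15.1 for *SLC25A20*, 7.12 for *SLC22A5*, 2.62 for *CROT*, 1.87 for *MLYCD*, 0.852 for *CPT1C*, 0.508 for *CPT1B* and 0.0557 for *ACACB*, and no neighbours overlapped. *CPT1A* thus passed *CPT2*, and *MLYCD* passed *CPT1C*. *CRAT* stood at or above 90.2% of the genes of the count table in WT and 95.5% in ACADSB-/-, *CPT1A* at or above 76.3% and 88.9%, and *ACACB* at or above 5.47% and 6.65%.

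**Figure D2:**
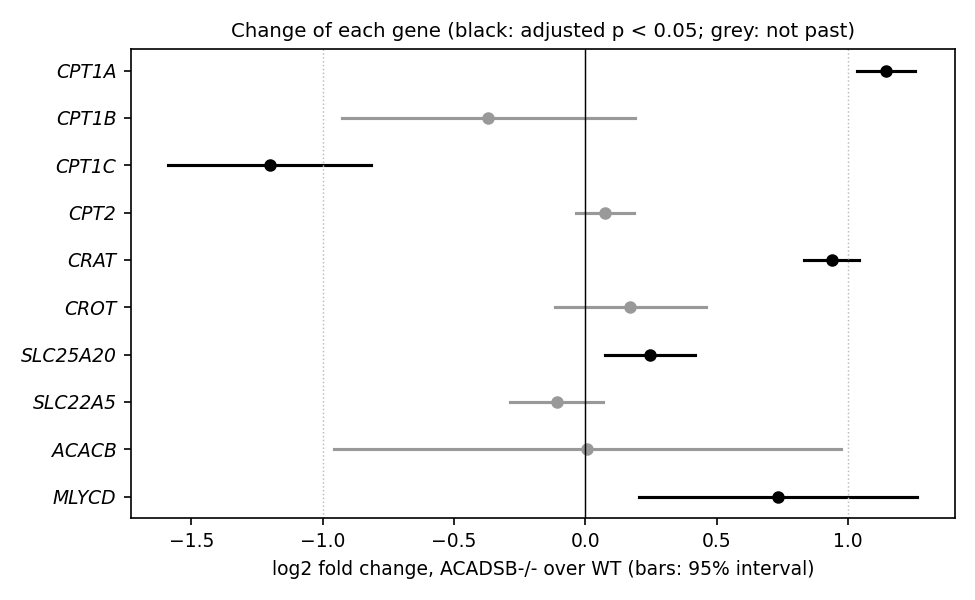
Log2 fold change of ACADSB-/- over WT for each gene with its 95% interval from edgeR, black where the adjusted p was under 0.05 and grey otherwise, with dotted lines at a 2-fold change. The intervals of *CPT1A* and *CRAT* are narrow and far from 0, that of *CPT1C* lies wholly below 0, and that of *ACACB* reaches from −0.96 to 0.97.

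Among the CPT1 forms, *CPT1A* and *CPT1C* moved in opposite directions. *CPT1A*, the form of liver and most other tissues, lies on chromosome 29 from 47146644 to 47207236 in the deposited annotation, for which the sources used here give no genome build. Its level was 53.1, 52.8 and 57.2 FPKM over the ACADSB-/- libraries, against 24.7, 22.5 and 24.9 over the WT libraries. Every ACADSB-/- library was above every WT library. *CPT1A* rose by 1.14 on the log2 scale (SE 0.0538, 95% interval 1.03 to 1.25, edgeR adjusted p = 2.36e-17), a 2.21-fold change, and 8.51% of the tested genes had a larger absolute change. An unnamed gene, LOC104976293, overlaps 857 bases of the *CPT1A* locus on the other strand at 0.761 FPKM in ACADSB-/- and 1.35 in WT. The sources used here do not say whether reads were counted by strand.

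*CPT1C*, the brain form, which in mice sits in the endoplasmic reticulum and has little acyltransferase activity, was much lower than *CPT1A*. Its counts were 90, 78 and 64 over the ACADSB-/- libraries, against 208, 162 and 146 over the WT libraries, or 0.914, 0.907 and 0.734 FPKM against 2.23, 1.88 and 1.64. The groups did not overlap. *CPT1C* fell by 1.20 on the log2 scale (SE 0.189, 95% interval −1.59 to −0.81, edgeR adjusted p = 2.88e-06). Of the 10 tested genes nearest to it on chromosome 18, all within 54532 bases, 8 were lower in ACADSB-/- at an edgeR adjusted p under 0.05. Over all tested genes 28.6% were lower. The median log2 fold change of these 10 neighbours was −0.40. The nearest neighbour of *CPT1C*, *ADM5*, lies 528 bases away on the same strand and fell by 0.81 (SE 0.193, edgeR adjusted p = 6.46e-04). The 10 tested genes nearest to *CPT1A* had a median of −0.27, with 3 higher and 5 lower. Of the 10 neuronal markers written for comparison, 4 (*SYT1*, *STMN2*, *ELAVL4* and *NEFM*) were listed at 0 in every library. Their summed level was 104 to 112 FPKM in ACADSB-/- and 164 to 167 in WT, nearly all of it the tubulin *TUBB3*, which was lower in ACADSB-/- (104 against 163 FPKM). Of the other neuronal markers tested, *MAP2* was higher in ACADSB-/- (3.47 against 1.82 FPKM, log2 fold change 0.90, edgeR adjusted p = 6.34e-10) and *RBFOX3* did not pass the test, so the list did not move one way. The part of these cells in the result was not tested, and in bulk RNA fewer cells of a type and less RNA per cell cannot be told apart.

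*CPT1B*, the form of muscle and brown fat, had 64, 37 and 46 counts over the ACADSB-/- libraries, against 57, 66 and 59 over the WT libraries. The groups overlapped through the first ACADSB-/- library. Its log2 fold change was −0.37 (SE 0.273, 95% interval −0.93 to 0.19, edgeR adjusted p = 0.253), so that at this depth neither an unchanged level nor a fall of nearly 2-fold was outside the interval. *CHKB*, a choline kinase 426 bases away on the same strand, had 48.7 FPKM in ACADSB-/- and 50.9 in WT, far above *CPT1B* at 0.508 and 0.645. The striated muscle genes *MYOD1*, *MYOG*, *MYH1*, *MYH7* and *TNNT3*, 5 of 11 markers, were listed at 0 in every library, and the 11 summed to 3.95 to 4.33 FPKM in ACADSB-/- and 1.69 to 2.61 in WT, mostly from *CKM*. Their part in the result was not tested.

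Taken inside each library, the make-up of CPT1 RNA shifted toward *CPT1A*. The summed level of the 3 forms was 54.6, 54.1 and 58.5 FPKM over the ACADSB-/- libraries, against 27.5, 25.1 and 27.1 over the WT libraries. *CPT1A* supplied 97.2%, 97.6% and 97.9% of this sum in ACADSB-/- and 89.8%, 89.6% and 91.7% in WT. *CPT1C* supplied 1.54% ± 0.243 (SD, n = 3) in ACADSB-/- and 7.22% ± 1.07 in WT, and *CPT1B* 0.913% ± 0.194 and 2.44% ± 0.412. For each of these 3 shares the groups stood apart, and each gave p = 0.1 in a two-sided exact permutation test, the smallest that 3 against 3 libraries allow (adjusted p = 0.125 over the 5 ratios tested). The share of *CPT1B* goes down when the other forms go up, whatever its own level. By length-scaled level *CPT1A* was 64.7-fold ± 11.5 (SD, n = 3) above *CPT1C* in ACADSB-/- and 12.7-fold ± 2.18 in WT, a ratio computed after the values were seen.

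**Figure D3:**
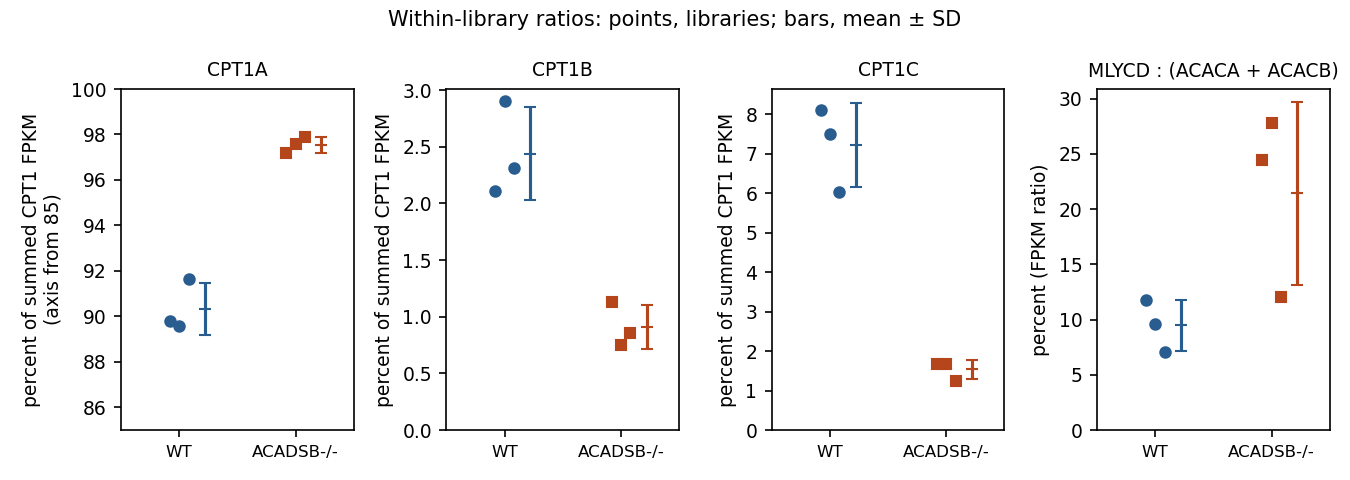
Ratios of FPKM values inside each library, with a point for each library (blue circles WT, orange squares ACADSB-/-) and bars for the mean and SD. The first 3 panels give each CPT1 form as a percent of the 3 together (the first axis does not start at 0) and the last gives *MLYCD* as a percent of *ACACA* plus *ACACB*, where the third ACADSB-/- library lies at 12.1, close to the highest WT library at 11.8.

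*CPT2*, which rebuilds acyl-CoA inside the mitochondrion, held nearly the same level in both groups. It had 47.5, 50.6 and 48.2 FPKM over the ACADSB-/- libraries, against 46.2, 43.6 and 45.7 over the WT libraries. The libraries did not overlap, but the gap was small. The log2 fold change was 0.08 (SE 0.0539, 95% interval −0.03 to 0.19, edgeR adjusted p = 0.233). The interval excludes a rise of the size seen for *CPT1A*. The ratio of *CPT1A* to *CPT2* was 1.12, 1.04 and 1.19 over the ACADSB-/- libraries, against 0.534, 0.515 and 0.545 over the WT libraries, a description chosen after the values were seen.

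*CRAT*, carnitine acetyltransferase, moves acetyl and other short-chain groups, branched ones included, between CoA and carnitine in mitochondria and peroxisomes. *ACADSB* oxidizes such a branched group from isoleucine, and in people who lack the enzyme the matching acylcarnitine accumulates. *CRAT* lies on chromosome 11 from 99841299 to 99854176 in the same annotation. Its level was 120.7, 120.9 and 128.1 FPKM over the ACADSB-/- libraries, against 65.1, 58.8 and 64.6 over the WT libraries. The groups were far apart beside their spread. *CRAT* rose by 0.94 on the log2 scale (SE 0.0512, 95% interval 0.83 to 1.04, edgeR adjusted p = 8.62e-16), a 1.92-fold change just under the 2-fold threshold. The nearest gene, *PPP2R4*, starts 660 bases away on the other strand and rose by 0.28 (SE 0.0537, edgeR adjusted p = 4.25e-05). Of the 10 tested genes nearest to *CRAT*, 5 were higher and 0 lower, with a median log2 fold change of 0.17. Over all tested genes 29.7% were higher and 28.6% lower. *CROT*, the peroxisomal octanoyltransferase that hands medium-chain products of peroxisomal oxidation to carnitine, had 284, 222 and 253 counts in ACADSB-/- against 235, 232 and 183 in WT. Its groups overlapped, and its log2 fold change was 0.17 (SE 0.141, 95% interval −0.12 to 0.46, edgeR adjusted p = 0.308).

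The 2 carriers differed little between the groups. *SLC25A20*, the carnitine-acylcarnitine translocase of the inner membrane, had 15.9, 14.8 and 14.6 FPKM over the ACADSB-/- libraries, against 12.5, 11.9 and 12.9 over the WT libraries. Every ACADSB-/- library was higher. *SLC25A20* rose by 0.25 on the log2 scale (SE 0.0842, 95% interval 0.07 to 0.42, edgeR adjusted p = 0.0132), and 59.5% of the tested genes had a larger absolute change. The call ended without ACADSB-/- replicate 1 (adjusted p = 0.083) or without WT replicate 2 (edgeR adjusted p = 0.051). *SLC22A5*, the plasma membrane carrier OCTN2 that brings carnitine into the cell, had 7.28, 6.81 and 7.29 FPKM in ACADSB-/- and 7.98, 7.04 and 7.50 in WT. The groups overlapped, with a log2 fold change of −0.11 (SE 0.0861, 95% interval −0.29 to 0.07, edgeR adjusted p = 0.283).

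Of the malonyl-CoA enzymes, *MLYCD* was higher in ACADSB-/- while *ACACB* was barely expressed. *MLYCD*, malonyl-CoA decarboxylase, removes the inhibitor of CPT1. It had 120, 116 and 60 counts over the ACADSB-/- libraries, against 76, 51 and 45 over the WT libraries. The first 2 ACADSB-/- libraries were above every WT library, and the third, at 1.18 FPKM, lay below the highest WT library at 1.40. *MLYCD* rose by 0.73 on the log2 scale (SE 0.258, 95% interval 0.21 to 1.26, edgeR adjusted p = 0.0162). Its coefficient of variation in ACADSB-/- was 33.0%, where counting alone gives 10.1%. The call ended without ACADSB-/- replicate 1, without ACADSB-/- replicate 2 or without WT replicate 3, with adjusted p-values of 0.0695, 0.118 and 0.0837 from edgeR.

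*ACACB*, the acetyl-CoA carboxylase of the mitochondrial surface that makes malonyl-CoA beside CPT1, had 18, 18 and 12 counts over the ACADSB-/- libraries, against 14, 21 and 11 over the WT libraries. These are 0.0434 to 0.0660 FPKM against 0.0389 to 0.0769. The log2 fold change was 0.01 (SE 0.473, 95% interval −0.96 to 0.97, edgeR adjusted p = 0.99), so changes of up to nearly 2-fold either way were not detectable at this depth. Its sister *ACACA*, the cytosolic carboxylase of fatty acid synthesis, was far higher, with 8.84 FPKM in ACADSB-/- and 11.5 in WT, and fell by 0.42 (SE 0.0666, edgeR adjusted p = 4.46e-06). *ACACB* was 0.636% ± 0.177 (SD, n = 3) of the 2 carboxylases together in ACADSB-/- and 0.48% ± 0.214 in WT, with p = 0.4 in a two-sided exact permutation test (adjusted p = 0.4). *MLYCD* stood at 24.4%, 27.8% and 12.1% of the 2 carboxylases over the ACADSB-/- libraries, against at 11.8%, 9.57% and 7.11% over the WT libraries. The groups did not overlap, by a margin set by the third ACADSB-/- library. The same exact permutation test gave p = 0.1 (adjusted p = 0.125). With 3 against 3 libraries this test cannot give a p below 0.1.

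Around these 10 genes, 7 lists of the same pathway were written, and their counts are to be read beside the 29.7% of tested genes that were higher and the 28.6% that were lower. Of 19 genes listed under mitochondrial β-oxidation, all tested, 8 rose and 11 did not pass the test. The list is not of mitochondrial genes alone, since *EHHADH*, *ECI2* and *ACAD11* are also placed in peroxisomes. It leaves out the edited gene *ACADSB*, which was lower, as given above, and the next counts hold without that gene. The count of lower genes was 0 with edgeR, DESeq2 and limma on log2(FPKM + 1), also at an unadjusted p under 0.05, and 1 with edgeR when WT replicate 2 was left out. The median log2 fold change of the list was 0.12. The electron carrier *ETFDH*, which passes electrons from the acyl-CoA dehydrogenases to the respiratory chain, rose by 0.69 (SE 0.0916), the medium-chain dehydrogenase *ACADM* by 0.69 (SE 0.0972) and *ACAD11* by 0.64 (SE 0.0872). *HADHA*, a subunit of the trifunctional protein, rose by 0.21 (SE 0.0511, edgeR adjusted p = 9.95e-04).

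Long-chain fatty acids must be joined to CoA before CPT1 can act. Of 15 tested acyl-CoA synthetases and acyl-CoA binding proteins, 7 rose, 1 fell and 7 did not pass the test, with a median of 0.12. *ACSL6* rose by 1.07 (SE 0.0705) and *ACSL1*, a synthetase that acts at the mitochondrial surface, by 1.02 (SE 0.0922). *ACSL5*, another mitochondrial synthetase, had 1, 1 and 11 counts in ACADSB-/- against 44, 58 and 67 in WT and fell by 3.71 (SE 0.542, edgeR adjusted p = 1.51e-06), with a log2 fold change of −5.72 without ACADSB-/- replicate 3, which holds most of the remaining counts. *SLC27A6*, a transport protein with synthetase activity, had 29, 14 and 23 counts against 5, 6 and 16, with overlapping groups (edgeR adjusted p = 0.0453), and its call ended in 10 of 17 other settings. Its log2 fold change went from 1.21 to 1.92 without WT replicate 3, and leaving out ACADSB-/- replicate 1 or 3 or WT replicate 1 or 2 ended the call (adjusted p 0.121 to 0.19 from edgeR).

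In the list of malonyl-CoA supply and use, 3 of 11 tested genes rose, 2 fell and 6 did not pass the test. *ACSS2*, which activates acetate, the main carbon source of milk fat in ruminants, rose by 0.71 (SE 0.049) and *ACACA* fell, as given above. *FASN*, the fatty acid synthase that consumes malonyl-CoA, stood at a log2 ratio of 0.02 (SE 0.0501, edgeR adjusted p = 0.703). *THRSP*, a lipogenic cofactor, had 73, 53 and 49 counts in ACADSB-/- against 2, 5 and 37 in WT, an edgeR adjusted p of 0.0378 that was not held in 7 of 17 other settings. Its log2 fold change of 1.92 became 3.96 without WT replicate 3, which has 37 of those counts, and leaving out any ACADSB-/- library or WT replicate 2 ended the call (adjusted p 0.0695 to 0.0975 from edgeR). Of 8 tested genes of the kinase AMPK, which inactivates the carboxylases, and its upstream kinases, 4 rose, 3 fell and 1 did not pass the test. Of the regulatory subunits, *PRKAB2* rose by 1.38 (SE 0.18). *PRKAB1* and *PRKAG1* were lower, with log2 fold changes of −0.15 and −0.36 (edgeR adjusted p = 0.0323 and 4.01e-06). The upstream kinase *CAMKK2* rose by 0.59 (SE 0.121), while *STRADA*, a partner of the kinase LKB1, fell by 0.40 (SE 0.0892).

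Among the genes of carnitine synthesis and the other carnitine carriers, 4 of 14 had enough counts to be tested. *ALDH9A1*, an enzyme of carnitine synthesis, rose by 0.30 (SE 0.0549), and *SLC25A29*, a mitochondrial carrier, and *SHMT2* fell by 0.50 (SE 0.0836) and by 0.36 (SE 0.0508). *BBOX1*, the last enzyme of carnitine synthesis, and the carriers *SLC22A4*, *SLC22A16*, *SLC22A3* and *SLC16A9* were listed at 0 FPKM in all 6 libraries. *SLC22A5* was thus the one plasma membrane carnitine carrier of the lists that reached the test.

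Of 13 tested genes of peroxisomal oxidation and acyl export besides *CRAT* and *CROT*, 4 rose, 5 fell and 4 did not pass the test, with 3 lower in several other settings. *ABCD3*, a transporter of acyl groups into peroxisomes, rose by 0.94 (SE 0.0674) and *SCP2*, a thiolase and lipid transfer protein, by 0.56 (SE 0.0614). Among the lower genes, *ACOT8*, *AMACR* and *DECR2* had log2 fold changes of −0.56, −0.53 and −0.53 (edgeR adjusted p = 1.48e-08, 8.38e-06 and 1.5e-05). That of *ACAA1* was −0.14 (edgeR adjusted p = 0.032). The thioesterase *ACOT4* had 5, 18 and 23 counts in ACADSB-/- against 24, 37 and 36 in WT (edgeR adjusted p = 0.039), a call that ended in 9 of 17 other settings. Its log2 fold change was −1.11, and −0.65 without ACADSB-/- replicate 1. The call ended without ACADSB-/- replicate 1 or 2 or WT replicate 2 or 3 (adjusted p 0.055 to 0.242 from edgeR).

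The PPAR nuclear receptors switch on *CPT1A*, *CPT2* and *SLC25A20* in many tissues. Without the members above, 15 genes of the PPAR list were tested, some of them shared with the lists already given, of which 8 rose, 3 fell and 4 did not pass the test, with a median of 0.21. *PPARA* had 351, 374 and 410 counts over the ACADSB-/- libraries, against 182, 182 and 174 over the WT libraries, and rose by 1.03 on the log2 scale (SE 0.134, edgeR adjusted p = 1.21e-07). *PPARD* rose by 0.29 (SE 0.0664). *PPARG* had 0.124 to 0.156 FPKM in ACADSB-/- and 0.033 to 0.107 in WT and was too low to be tested, as was the coactivator *PPARGC1A*, at 0.0090 to 0.0828 FPKM against at most 0.0052. *PDK4*, a kinase that turns off pyruvate dehydrogenase when fat is burned, had 333, 272 and 217 counts in ACADSB-/- against 31, 42 and 17 in WT and rose by 3.13 (SE 0.228, edgeR adjusted p = 4.36e-12).

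**Figure D4:**
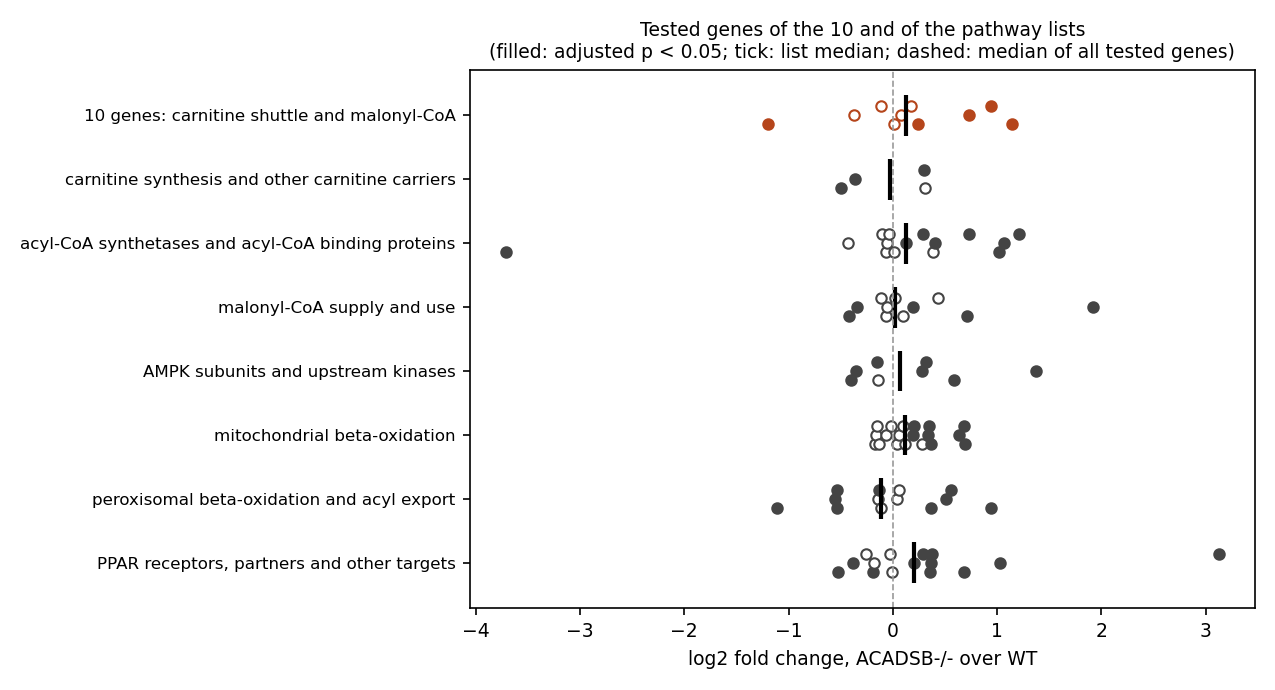
Log2 fold change of ACADSB-/- over WT for the 10 genes (orange) and for the tested genes of the 7 lists without them (grey), filled where the adjusted p from edgeR was under 0.05, with a tick at each median and a dashed line at the median of all 13720 tested genes. The medians lie between −0.12 and 0.21, and called genes stand on both sides of 0 in each row except mitochondrial β-oxidation.

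By the distance of their log2 CPM profiles over the 6 libraries, the tested genes most like *CPT1A* were *GALNT6* (distance 0.0901), *ATP11A* (0.118) and *FAM43A* (0.119), which rose by 1.18, 1.21 and 1.09. Those most like *CPT1C* were *MMP16* (0.26), *TMEM261* (0.273) and *PSD* (0.286), which fell by 1.31, by 1.25 and by 1.37. In 2 groups of 3 libraries such a likeness reflects mainly the size of the difference between the groups.

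**Figure D5:**
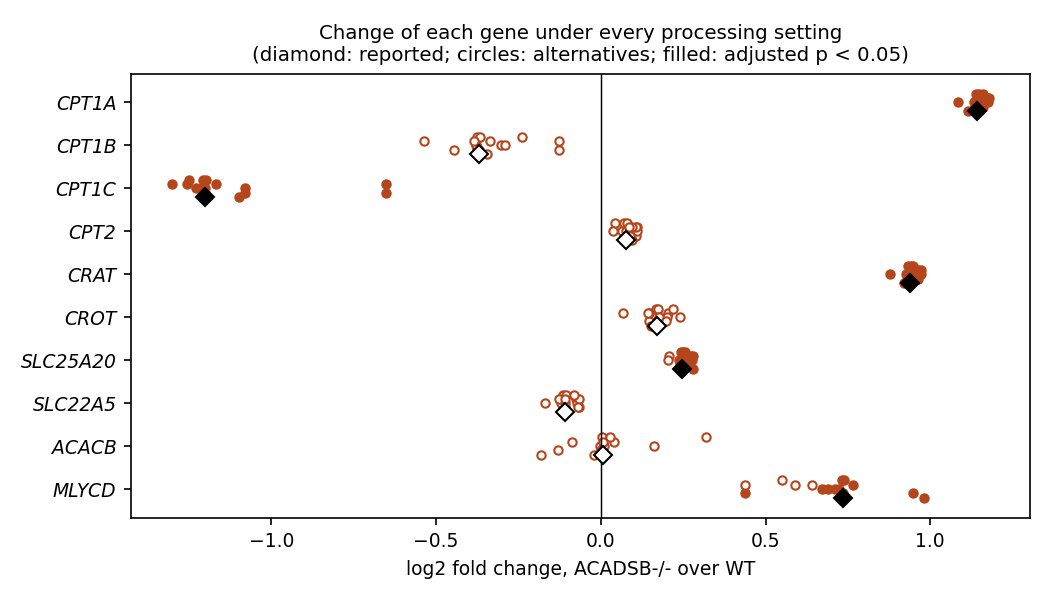
Log2 fold change of each gene under the reported setting (diamond) and under the alternatives (circles), filled where the adjusted p was under 0.05. *CPT1A*, *CPT1C* and *CRAT* keep their side of 0 throughout, the points of *MLYCD* range from 0.44 to 0.98, and those of *ACACB* lie on both sides of 0.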

How the data were processed

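RNA-seq libraries of ACADSB-/- and WT bMECs were compared, 3 in each group, with group and replicate number taken from the sample titles. The authors removed reads with adapters, unknown bases or low quality, aligned the rest and deposited raw counts per gene. They also deposited FPKM values, which scale the reads by gene length and library total, and converting them back gave the counts of the 10 genes to within 0.714 reads. Aligner, counter, strand setting, build and annotation: not given in the sources used here, apart from Bismark 0.12.5, which stands without a role in the submitters' processing notes. The authors' own fold changes, p-values and gene list were not used, nor were 3 columns of per-sample FPKM values that match no sample of the series. No promoter or protein sequences were analysed here.

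Counts were filtered with filterByExpr (minimum count 10, minimum total 15), scaled by TMM (factors 0.978 to 1.02) and tested over all genes with the robust quasi-likelihood test of edgeR 4.0.16 in R 4.3.3, with the condition as the single term (common dispersion 0.0044) and Benjamini-Hochberg adjustment. The paper names EB-Seq, which was not used here. Calls were made below an adjusted p of 0.05, and separately with a log2 fold change of 1 or more in size. Standard errors are the log2 fold change over the root of the F statistic. Levels between genes were compared as FPKM, and ratios within a library with a two-sided exact permutation test. limma 3.58.1, DESeq2 1.42.0, other scalings and filters, a replicate block and leaving out each library were tried as alternatives, and figures were drawn with matplotlib 3.10.9. The steps were also run on simulated counts in which few genes changed, as many up as down. In the present data 58.2% of the tested genes were called, a case that the simulation does not cover. Libraries of a group differed by more than sampling noise (chi-square per degree of freedom 3.93 to 9.72), so none was taken for a copy.

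The 10 genes and the 7 pathway and 9 marker lists were chosen with earlier results of these data known. All 10 genes are named, and from each pathway list up to 3 called genes with the largest absolute change, besides *ACACA*, *PPARA*, *PPARD*, *PPARG*, *PPARGC1A*, *ACSL1*, *FASN* and *HADHA*. Markers are named where a list was at or near 0. The luminal genes, *KRT5*, *TUBB3*, *MAP2*, *RBFOX3* and the basal, fibroblast and endothelial genes below were added after their values were seen. So were *ACOT8*, *AMACR*, *DECR2*, *ACAA1*, *PRKAB1* and *PRKAG1* of the pathway lists. The other marker sums, in FPKM, were 3060 to 3330 in ACADSB-/- and 3950 to 4070 in WT for luminal, 16.5 to 18.3 and 6.93 to 7.69 for milk synthesis, 2220 to 2340 and 2020 to 2110 for basal, 598 to 625 and 499 to 537 for fibroblast, 5.75 to 6.06 and 5.65 to 5.99 for adipocyte, 1.07 to 1.55 and 3.78 to 3.90 for endothelial, and 33 to 33.5 and 45 to 48.4 for immune markers. Single markers moved apart from these sums: *KRT5* carries the basal sum and *DCN* the fibroblast sum, while *KRT14*, *KRT17* and *TAGLN* (log2 fold changes −0.92, −2.99 and −4.14) and *COL3A1* and *FBN1* (−1.17 and −1.07) were lower, as were the endothelial *PECAM1* and *ERG* (−5.76 and −2.04), and *ACTA2* (0.73) and *VWF* (1.11) were higher. Their part in the results was not tested.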

Additional observations from a re-analysis of the deposited data

How the results depend on the processing

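The calls of *CPT1A*, *CPT1C* and *CRAT* held when each library was left out and under every other scaling, filter and tool tried, with the exception of edgeR's test for a change beyond 2-fold, which kept *CPT1A* (adjusted p = 0.0285) and not *CPT1C* or *CRAT*. That test called 1 of the 10 genes higher and 0 lower (0 also at an unadjusted p under 0.05, where DESeq2's usual test called 1), 289 genes higher and 372 lower over all genes, 661 together, and gave *ACADSB* an adjusted p of 0.467 at its log2 fold change of −1.60. The number of genes called at 2-fold, 1402, was 542 and 543 with limma on log2(FPKM + 1) with and without a filter, with 1 of the 10 genes in each, and 855 among genes with a mean of at least 50 counts, a filter that tests fewer genes. *CPT1C* had a log2 fold change of −0.65 with limma on log2(FPKM + 1), where the added 1 shrinks low genes. *MLYCD* also lost its call with limma and no filter (adjusted p = 0.103). With each library left out in turn, 2 to 4 of the 10 genes were called higher, 2 of them without ACADSB-/- replicate 1. The uncalled *ACACB* changed sign with upper-quartile scaling (−0.0029) and ranged from −0.18 to 0.32 with a library left out, and *FASN* from −0.041 to 0.058. Other scalings moved the median of all genes to at most 0.0391. With the replicate number as a block, 4 of the 10 genes were higher and 1 lower, and 4000 and 3806 of all genes. The deviations of same-numbered libraries correlated at −0.0402 to −0.0236, so no shared effect of a replicate number was seen. This cannot show whether the libraries were prepared in pairs. The block changed no call among the 10. Depth limits *ACACB* and *CPT1B*, which had 11 to 66 counts in a library, while the libraries of *MLYCD* varied by more than counting gives.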
